A study of Mus musculus with 90 samples.

Results

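This account follows 7 genes that mark the medium spiny neurons of the striatum, Drd1, Drd2, Adora2a, Gpr6, Ppp1r1b, Pde10a and Rgs9, through 90 RNA-seq libraries of mouse amygdala, frontal cortex and hypothalamus. The genes were taken by name, as known genes of that cell type, with earlier results of these data in view, and all 7 were found among the 37991 gene IDs of the count table. The residents were C57BL/6J males that had each been housed with a C57BL/6J female, which was taken out before the test. Intruder animals met an unfamiliar BALB/cJ male held in a wire mesh cage for 5 min, and control animals met the same cage holding a paper cup. After a wait of 30, 60 or 120 min in the dark the 3 regions were dissected, and every group, controls included, shares this housing. Whether all other handling was the same at each time is not known, because a header tag of unstated meaning differs between times. The age of the animals is not given in the sources used here.

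Each of the 18 groups of region, time and condition held 5 libraries, except the hypothalamus control group at 30 min with 3 and both frontal cortex groups at 120 min with 6. The labels give 1 animal ID for each library and 32 animals in all, of which 28 gave all 3 regions. The design text also says that RNA was pooled to make the libraries, without saying over which samples, so the animal behind a library is used here as labelled. None of the 3 dissected regions is the striatum.

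Medium spiny neurons are the inhibitory output neurons of the striatum. They receive dopamine from the midbrain and glutamate from cortex and thalamus, and fall into a direct-pathway type that carries the D1 receptor and an indirect-pathway type that carries the D2 receptor together with the adenosine A2a receptor. Related neurons lie in the nucleus accumbens and olfactory tubercle and in parts of the extended amygdala, and deep cortical neurons also express some of the same genes at lower levels.

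Drd1 (ENSMUSG00000021478, chromosome 13) encodes the D1 dopamine receptor of the direct pathway. Drd2 (ENSMUSG00000032259, chromosome 9) encodes the D2 dopamine receptor, which is also made by dopamine neurons and by other cells of the hypothalamus. Adora2a (ENSMUSG00000020178, chromosome 10) encodes the A2a adenosine receptor. Gpr6 (ENSMUSG00000046922, chromosome 10) encodes an orphan receptor of the indirect pathway. Ppp1r1b (ENSMUSG00000061718, chromosome 11) encodes DARPP-32, an inhibitor of protein phosphatase that is set by dopamine and adenosine receptors in both types of neuron. Pde10a (ENSMUSG00000023868, chromosome 17) encodes a phosphodiesterase that breaks down cAMP and cGMP in both types. Rgs9 (ENSMUSG00000020599, chromosome 11) encodes a protein that shortens signalling through inhibitory G proteins, with a striatal and a retinal isoform, which a count per gene does not separate.

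Because the genes rose and fell together across libraries, as described further on, their promoters were searched for shared short motifs. RefSeq starts on GRCm38.p6 were found for 5 of the 7 genes, giving 7 windows of 250 bases before a start. Adora2a and Ppp1r1b had no entry. The 3 windows with the most matches are given 5′ to 3′ with the matches in capitals: Gpr6 lies at chr10:41072291-41072540 on the minus strand, Drd2 at chr9:49340153-49340402 on the plus strand and Rgs9 at chr11:109298182-109298431 on the minus strand.
Gpr6: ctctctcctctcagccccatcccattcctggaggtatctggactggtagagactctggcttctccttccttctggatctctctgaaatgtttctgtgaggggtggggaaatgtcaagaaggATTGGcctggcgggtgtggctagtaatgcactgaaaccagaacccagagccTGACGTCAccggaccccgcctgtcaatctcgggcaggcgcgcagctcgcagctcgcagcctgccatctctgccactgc
Drd2: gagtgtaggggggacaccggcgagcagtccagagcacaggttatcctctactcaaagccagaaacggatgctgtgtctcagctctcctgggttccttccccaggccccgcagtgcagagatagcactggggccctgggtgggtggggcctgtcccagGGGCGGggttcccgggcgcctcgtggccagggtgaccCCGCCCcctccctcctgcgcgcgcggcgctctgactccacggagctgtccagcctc
Rgs9: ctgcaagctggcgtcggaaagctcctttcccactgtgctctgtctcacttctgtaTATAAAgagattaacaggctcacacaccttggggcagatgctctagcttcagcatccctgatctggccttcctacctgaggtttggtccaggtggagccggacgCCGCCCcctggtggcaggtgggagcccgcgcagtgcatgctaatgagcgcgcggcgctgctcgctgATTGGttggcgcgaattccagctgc

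The capitals mark the cAMP response element TGACGTCA, the GC box GGGCGG, the CCAAT box CCAAT and the TATA box TATAAA, each searched on both strands. Gpr6 held 1 cAMP response element, beginning 78 bases before the start, and 1 CCAAT box. Drd2 held 2 GC boxes, and Rgs9 held 1 each of the GC, CCAAT and TATA boxes. The upstream start of Drd1 held no match and its second start 1 GC box, while the starts of Pde10a held 1 GC box and 1 CCAAT box. No motif was shared by all 7 windows. Over 32851 promoter windows of the same length, 1.55% held the cAMP response element, 32.7% the GC box, 33.8% the CCAAT box and 12.4% the TATA box. A match is a description of these letters and shows neither a bound site nor a cause.

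Reads assigned to genes ranged from 38.6 M to 58.86 M per library. Levels are given as counts-per-million (CPM) of the reads in genes after trimmed-mean (TMM) scaling over all 90 libraries. The smallest counts behind any value of the 7 genes were 28 reads for Gpr6 and 39 for Drd2, both in frontal cortex 30 min intruder 3, so counting error is small beside the differences described. In bulk tissue, fewer cells of a type and less RNA per cell cannot be told apart. All libraries at 30 min carry the tag ISO in the column headers and all those at 60 and 120 min the tag CERV, whose meaning is not stated, so tag and early time cannot be told apart. Summed hypothalamic markers measured 670.0 to 1820 CPM in hypothalamus against at most 80.9 CPM elsewhere, and cortical markers 1480 to 2170 CPM in frontal cortex against at most 208 CPM in hypothalamus, as the region labels say.

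In amygdala, the direct-pathway receptor Drd1 ranged from 19.3 to 178 CPM over 30 libraries, with a median of 41.4. At 30 min the control libraries 1 to 5 measured 97.9, 21.1, 66.8, 20.8 and 68.1 CPM, and the intruder libraries 43.5, 30.9, 26.7, 74.7 and 76.1 CPM. At 60 min control libraries 1, 2, 3, 5 and 6 measured 30.7, 34.7, 26.4, 41.9 and 178 CPM, and intruder libraries 1 to 5 measured 72.3, 20.1, 19.3, 40.8 and 93.8 CPM. High and low libraries therefore stood in every group, and the control and intruder groups overlapped. At 120 min control libraries 1, 2, 3, 4 and 6 measured 39.0, 25.3, 22.2, 38.5 and 117 CPM, and the intruder libraries of the same numbers 36.9, 50.3, 112, 44.0 and 110 CPM. One control library stood far above the other 4, and 2 intruder libraries stood above the other 3.

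Adora2a, the receptor of the indirect pathway, had the widest range in amygdala. Its level at 30 min was 114, 9.91, 59.1, 7.76 and 59.1 CPM in control libraries 1 to 5 and 42.3, 17.6, 11.9, 74.1 and 83.0 CPM in intruder libraries 1 to 5. Both groups held libraries with little Adora2a beside others with several times more. At 60 min it was 12.6, 13.8, 11.4, 27.9 and 176 CPM in control libraries 1, 2, 3, 5 and 6, against 53.6, 3.25, 2.96, 26.8 and 84.1 CPM in intruder libraries 1 to 5. At 120 min it was 17.3, 3.55, 6.32, 21.2 and 92.6 CPM in control libraries 1, 2, 3, 4 and 6, against 15.5, 25.5, 99.5, 19.8 and 87.9 CPM in the intruder libraries. The libraries that were high for Adora2a were those that were high for Drd1, although the 2 receptors mark different types of neuron.

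Drd2, which shares the indirect-pathway neurons with Adora2a, ranged in amygdala from 4.02 to 99.9 CPM with a median of 18.4. Gpr6, the scarcest of the 7, ranged from 1.52 to 35.5 CPM with a median of 5.6. For both genes the lowest library was 120 min control 2 and the highest 60 min control 6. Among the signalling genes, Ppp1r1b ranged from 86.1 to 728 CPM with a median of 175. Pde10a ranged from 71.4 to 759 CPM with a median of 148, and Rgs9 from 16.1 to 300 CPM with a median of 56.4. All 3 were highest in 60 min control 6 as well.

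In frontal cortex the same genes had lower medians over all libraries and again differed widely between libraries. Adora2a measured 12.8, 3.75, 18.5, 4.26 and 18 CPM in control libraries 1 to 5 at 30 min and 20.2, 58.5, 2.33, 5.99 and 17.8 CPM in the intruder libraries. At 60 min it measured 28.1, 45.7, 11.3, 14.7 and 7.64 CPM in control libraries 1, 2, 3, 5 and 6, and 62.1, 4.94, 86.1, 32.0 and 6.16 CPM in intruder libraries 1 to 5. Intruder library 2 was the highest of its group at 30 min, and libraries 1 and 3 were the highest at 60 min. At 120 min, with 6 libraries a group, the controls ran from 2.59 to 54.1 CPM and the intruder libraries from 5.53 to 48.5 CPM, so these groups overlapped almost fully. Drd1 ranged over the 32 libraries from 5.65 to 79.9 CPM with a median of 22.7, and Drd2 from 0.9 to 60.7 CPM with a median of 11.4. Gpr6 ranged from 0.646 to 20.2 CPM. For 6 of the 7 genes, all but Pde10a, the lowest library of the region was 30 min intruder 3. Ppp1r1b stayed between 97.2 and 520.0 CPM, Pde10a between 42.4 and 314 CPM and Rgs9 between 7.89 and 113 CPM.

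The hypothalamus differed in kind. Drd2 (11.2 to 24.1 CPM over 28 libraries) and Rgs9 (33.7 to 52.7 CPM) were present in every library within a narrow range, and Gpr6 ranged more widely (2.29 to 7.04 CPM). Adora2a had a median of 1.38 CPM, and only 6 libraries exceeded 3 CPM: 30 min control 3 with 7.91, 30 min control 5 with 3.52, 30 min intruder 4 and 5 with 3.26 and 3.83, and 60 min control 1 and 6 with 4.62 and 8.44. The 2 libraries highest in Adora2a were also the 2 highest in Drd1, with 14.2 and 16.0 CPM against a median of 7.1, and in Ppp1r1b, with 45.4 and 47.0 CPM against a median of 18.7. Pde10a was likewise highest in those 2, at 89.6 and 87.6 CPM.

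**Figure D1:**
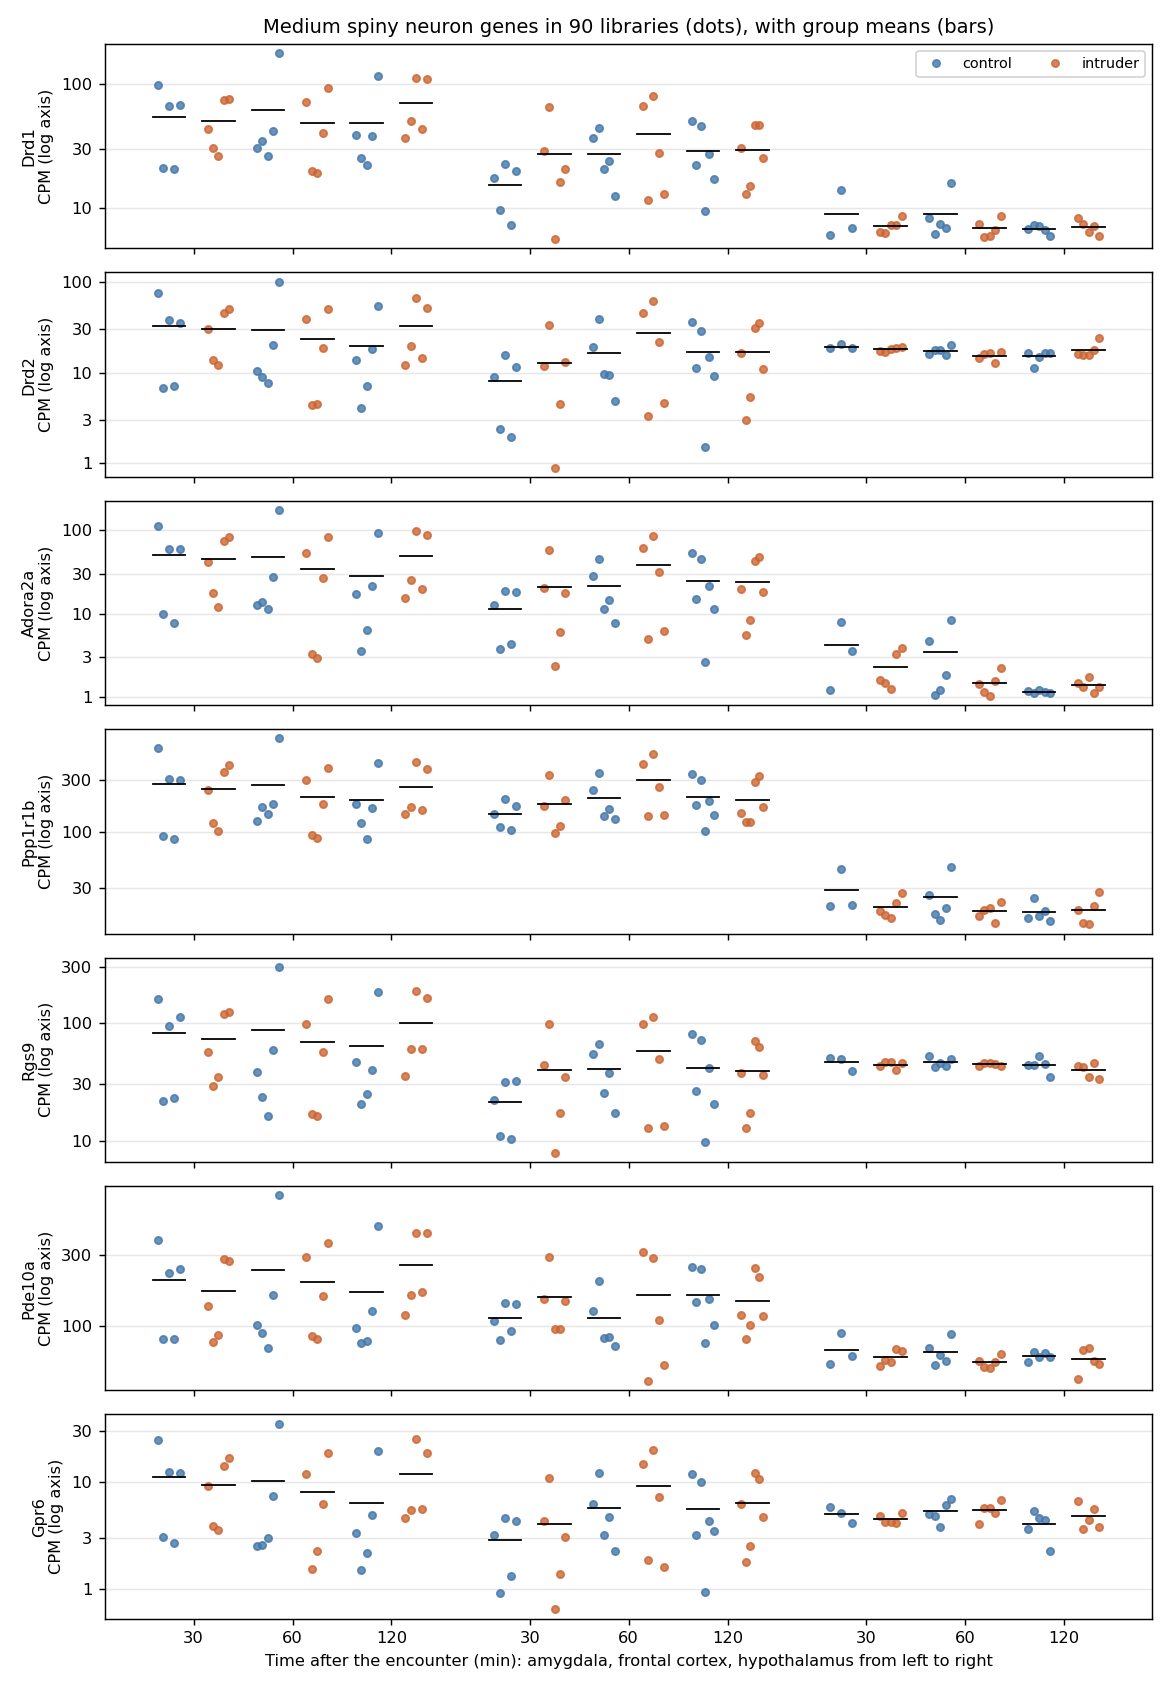
Level of each of the 7 genes (CPM, log axis) in every library, by region and by minutes after the encounter. Blue dots are control libraries, orange dots intruder libraries and bars group means; amygdala and frontal cortex libraries of the same group lie far apart, while Drd2 and Rgs9 vary less across the hypothalamus.

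The spread between libraries of the same group was measured as the SD of log2 CPM around the group means. In amygdala it ran from 0.946 for Drd1 and 0.969 for Ppp1r1b to 1.69 for Adora2a, against a median of 0.125 over 14222 genes with a mean of at least 1 CPM. Only 6 genes of the table spread more than Adora2a there, and each of the 7 spread more than at least 99.46% of genes. The most extreme of the amygdala groups was 60 min intruder, where Adora2a differed 28.4-fold between its highest and lowest library. In frontal cortex the SD ran from 0.653 for Ppp1r1b to 1.58 for Drd2, each above at least 99.37% of 13965 genes, and Drd2 differed by up to 37.0-fold within a group. In the hypothalamus Adora2a (SD 0.776) still spread more than 99.22% of 14470 genes, but Drd2 (0.184) and Rgs9 (0.156) exceeded only 77.13% and 70.17% of them. These percentiles were computed after the data had been seen.

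The spread was compared between regions with a two-sided permutation test of the mean absolute deviation from the group median (100000 resamples), run on every gene and adjusted over all genes by Benjamini-Hochberg. The genes were chosen with their spread in amygdala known, so these p-values describe the sizes and are not independent evidence. The test also took the libraries of 2 regions as independent, although 28 animals gave all 3 regions. The pairing by animal was not taken into account. The deviation was larger in amygdala than in hypothalamus for all 7, and 6 passed, from Drd2 with 1.01 against 0.107 on the log2 scale (adjusted permutation p = 0.00531) to Adora2a with 1.22 against 0.459 (0.0463), where 4.71% of all genes passed in that direction and 4.95% in either. Ppp1r1b, with 0.686 against 0.28, did not pass (adjusted permutation p = 0.0557). Between frontal cortex and hypothalamus 5 passed with more spread in frontal cortex, as did 1.43% of all genes (2.19% in either direction), and Adora2a and Ppp1r1b did not (adjusted permutation p = 0.0752 and 0.239). Adjusted over the 21 tests of the 7 genes alone, all 7 passed in both. Between amygdala and frontal cortex 0 of 7 passed, against 4.58% of all genes, the lowest adjusted permutation p being 0.459 for Ppp1r1b. A p that misses the threshold does not show that values did not differ.

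**Figure D2:**
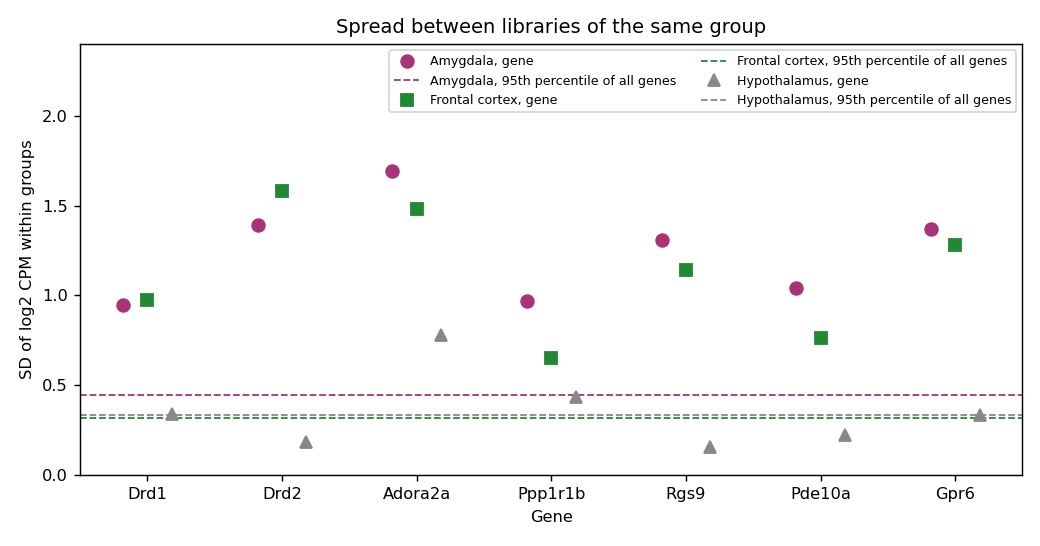
SD of log2 CPM within groups (vertical axis) for each of the 7 genes in amygdala (circles), frontal cortex (squares) and hypothalamus (triangles); dashed lines give the 95th percentile of all genes in each region. Every gene lies above the line in amygdala and frontal cortex, while Drd2, Rgs9, Pde10a and, narrowly, Gpr6 lie below it in hypothalamus.

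The libraries that were high in 1 of the genes were high in the others. In amygdala the deviations of log2 CPM from the group means correlated in all 21 pairs of genes, with Pearson r from 0.95 to 0.992 (median 0.977) and Spearman rho from 0.919 to 0.987 over 30 libraries. Each pair reached a permutation p of 1e-05, the smallest that 100000 resamples within groups can give (adjusted p 1.5e-05 over 63 relations computed). Without the 2 libraries farthest from the median, r stayed between 0.941 and 0.991. Strong correlation with these genes was common in amygdala. Of 14215 other genes there, 22.7% had a median r with them of at least 0.5, and 22.3% of -0.5 or below. The share of all gene pairs that pass was not computed. The genes were chosen with their spread in amygdala known, so the permutation p-values describe the sizes and are not independent evidence. The tightest pair was Drd2 with Adora2a (r = 0.992), both of the indirect pathway, but pairs across the pathways were close to it, such as Drd1 with Drd2 (r = 0.978) and Drd1 with Adora2a (r = 0.974).

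In frontal cortex all 21 pairs correlated as well, with r from 0.896 to 0.991 and rho from 0.958 to 0.991 over 32 libraries (permutation p again 1e-05, adjusted p 1.5e-05, and r from 0.92 to 0.991 without the 2 farthest libraries). The loosest pair was Drd2 with Pde10a. Of 13958 other genes in frontal cortex, 6.1% had a median r with the 7 of at least 0.5, and 6.43% of -0.5 or below. In hypothalamus 8 of 21 pairs passed over 28 libraries, and r ran from -0.211 to 0.822. Drd1 with Adora2a gave the highest value (r = 0.822, rho = 0.643, adjusted permutation p = 8.79e-05, and r = 0.691 without the 2 farthest libraries). Adora2a with Pde10a gave r = 0.768, rho = 0.684 and an adjusted permutation p of 0.000172 (r = 0.678 without the 2 farthest). Of 14463 other genes in hypothalamus, 0.194% had a median r with the 7 of at least 0.5, and 0.166% of -0.5 or below. The share of all gene pairs that pass was not computed in these 2 regions either. The same library was the highest of its group for 6 or 7 of the genes in 6 of 6 amygdala groups, 5 of 6 frontal cortex groups and 2 of 6 hypothalamus groups.

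Straight lines of CPM on the CPM of Adora2a, added after the data had been seen, describe each gene's level against that of Adora2a. In amygdala Drd2 rose by 0.573 ± 0.0107 (SE) CPM per CPM of Adora2a from an intercept of 3.41 ± 0.639 CPM, and the line took 99.0% of the variance. Gpr6 rose by 0.206 ± 0.00479 from 0.798 ± 0.285 CPM. In the 3 libraries lowest in Adora2a the means were 4.29 CPM for Drd2 and 1.78 CPM for Gpr6. Drd1 rose by 0.878 ± 0.0358 from an intercept of 18.5 ± 2.13 CPM. Ppp1r1b rose by 3.82 ± 0.108 from 80.3 ± 6.45 CPM, Pde10a by 3.7 ± 0.176 from 47.9 ± 10.5 CPM and Rgs9 by 1.61 ± 0.0559 from 10.6 ± 3.32 CPM. The intercept was above 0 for each of the 6 genes.

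In frontal cortex the slope was 0.874 ± 0.0298 for Drd1, 0.694 ± 0.0197 for Drd2 and 0.224 ± 0.00726 for Gpr6. The intercept of Drd1 was 7.71 ± 0.937 CPM there, that of Drd2 was 0.0362 ± 0.619 CPM and that of Ppp1r1b was 91.1 ± 4.81 CPM. In hypothalamus the line took 83.3% of the variance of Drd1, 80.7% of Ppp1r1b and 67.3% of Pde10a, but 17.5% of Drd2, 11.1% of Rgs9 and 9.94% of Gpr6. The intercepts of Drd2 and Rgs9 there were 15.8 ± 0.647 and 42.3 ± 1.3 CPM. The slopes of the regions were not tested against each other.

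**Figure D3:**
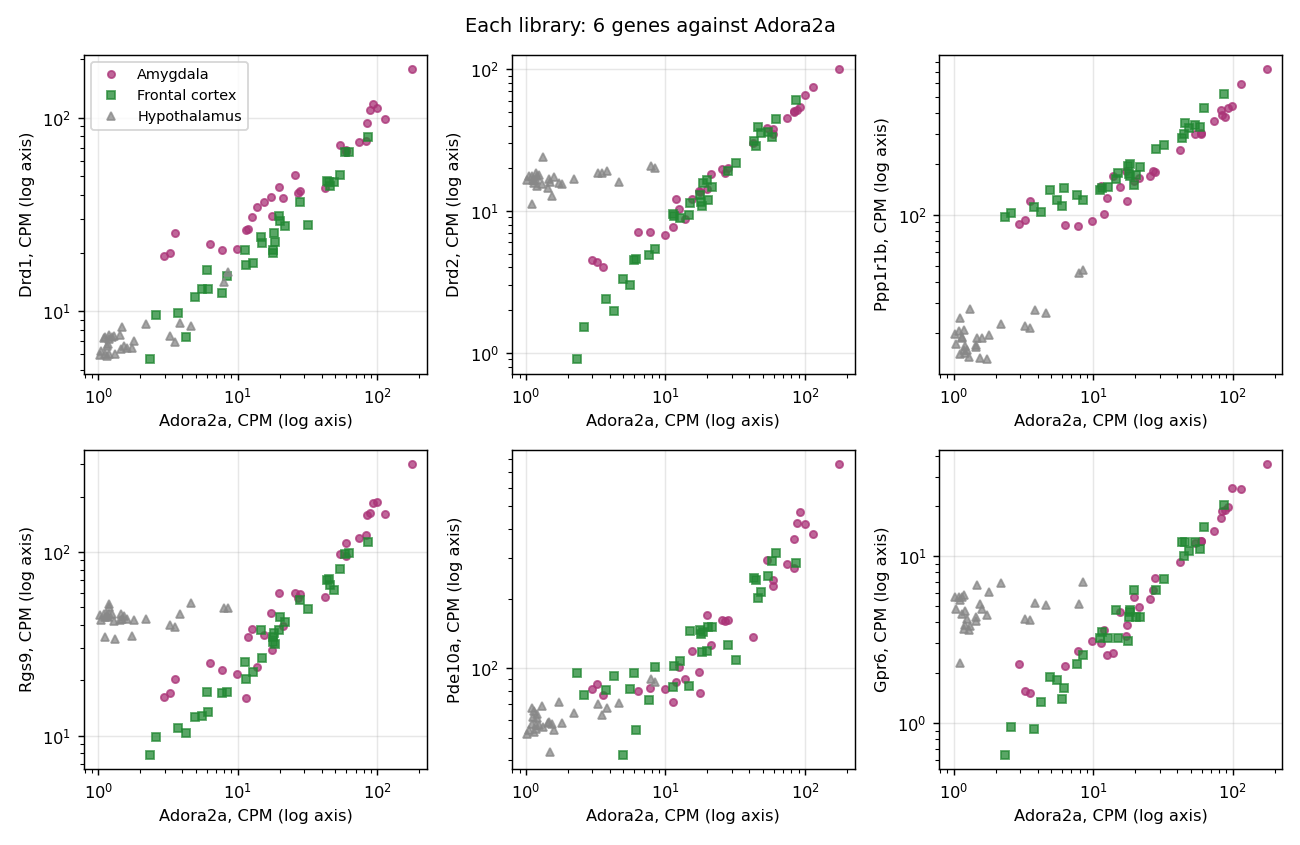
Each library as 1 point, with the CPM of Adora2a on the horizontal axis and the CPM of 1 of the other 6 genes on the vertical axis (log axes), in amygdala (circles), frontal cortex (squares) and hypothalamus (triangles). Amygdala and frontal cortex points rise together in every panel; hypothalamus points stay at low Adora2a, with Drd2 and Rgs9 nearly level.

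Whether an animal high in one region was high in another was asked from the animal IDs, with permutation tests run on every gene and adjusted over all genes. Over 30 animals with amygdala and frontal cortex, the deviations of the 2 regions gave r from -0.2 for Pde10a to -0.0332 for Drd2 and rho from -0.169 to -0.0194, and 0 of 7 passed (adjusted permutation p of 0.849 or more), against 0.422% of all genes. Between amygdala and hypothalamus of 28 animals 2 of 7 passed, where 9.15% of all genes did. Adora2a gave r = 0.599 and rho = 0.608 (adjusted permutation p = 0.00655 and 0.0157), and r = 0.506 without the 2 farthest animals. Its r was above that of 93.3% of all genes. Pde10a gave r = 0.59 (adjusted permutation p = 0.0333) and rho = 0.575 (adjusted 0.0557), and r = 0.555 without the 2 farthest. The other 5 genes did not pass, with r from -0.471 for Rgs9 to 0.471 for Drd1. The r of Rgs9 was above that of only 1.14% of all genes, so the 7 did not move alike. Between frontal cortex and hypothalamus r ran from -0.208 to 0.136 and 0 of 7 passed, against 0.37% of all genes. This comparison by animal was added after the data had been seen.

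Control libraries were compared between regions to order the levels. In amygdala the mean was 55.2 ± 44.7 CPM (SD, n = 15) for Drd1, 42.2 ± 50.1 CPM for Adora2a, 27.1 ± 28.7 CPM for Drd2 and 9.23 ± 10.2 CPM for Gpr6. The signalling genes stood at 247 ± 195 CPM for Ppp1r1b, 203 ± 195 CPM for Pde10a and 77.6 ± 81.3 CPM for Rgs9. The SD was about as large as the mean for each of the 7, since a few libraries carried much of it. In frontal cortex (n = 16) the means were 24.4 ± 13.5 CPM for Drd1, 19.7 ± 15.8 CPM for Adora2a, 14.0 ± 11.6 CPM for Drd2, 4.83 ± 3.61 CPM for Gpr6, 188 ± 79.5 CPM for Ppp1r1b, 131 ± 56.4 CPM for Pde10a and 35.0 ± 22.5 CPM for Rgs9. In hypothalamus (n = 13) they were 8.19 ± 3.16 CPM for Drd1, 2.73 ± 2.65 CPM for Adora2a, 16.9 ± 2.4 CPM for Drd2, 4.82 ± 1.21 CPM for Gpr6, 23.3 ± 10.7 CPM for Ppp1r1b, 65.6 ± 11.2 CPM for Pde10a and 45.5 ± 5.27 CPM for Rgs9. The control medians gave another order for some genes. Amygdala lay below frontal cortex for Pde10a (101 against 117 CPM) and Gpr6 (3.33 against 3.91). It lay below hypothalamus for Drd2 (13.9 against 16.6 CPM), Rgs9 (39.6 against 45.1) and Gpr6 (3.33 against 4.83). The other medians were higher in amygdala.

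Levels of different genes can be set side by side only per length. Per 1000 exon bases, Ppp1r1b had the highest mean of the 7 in every region. Its means were 84.6, 64.2 and 7.95 CPM per 1000 bases in amygdala, frontal cortex and hypothalamus. Gpr6 had the lowest mean in amygdala and frontal cortex (5.17 and 2.7). In amygdala Pde10a (15.8 ± 15.2), Drd1 (15.2 ± 12.3), Adora2a (13.8 ± 16.4), Rgs9 (12.2 ± 12.7) and Drd2 (10.6 ± 11.3) lay between. Differences between these neighbours were not tested. The SD given is the spread between libraries. Since the genes were measured in the same libraries, it does not measure how surely their means differ. In hypothalamus Rgs9 (7.12 ± 0.825) and Drd2 (6.65 ± 0.943) followed Ppp1r1b by the mean, and Adora2a was the lowest (0.892 ± 0.866). By the median, Rgs9 (7.05) stood above Ppp1r1b (6.64) there. The order of the genes thus differed between hypothalamus and the other regions as a description of means.

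Control amygdala was higher than control frontal cortex for 6 of the 7 genes by edgeR's quasi-likelihood test with Benjamini-Hochberg adjustment over 18056 genes, called at an adjusted p under 0.05. Of all genes, 67.8% were called in this comparison and 34.6% were called higher in amygdala, so a call is common here. The log2 differences were 1.23 ± 0.28 (SE, edgeR adjusted p = 0.000233) for Drd1, 1.21 ± 0.35 (0.00298) for Rgs9, 1.15 ± 0.45 (0.0249) for Adora2a, 1.00 ± 0.40 (0.0265) for Drd2, 0.97 ± 0.39 (0.0256) for Gpr6 and 0.65 ± 0.28 (0.0414) for Pde10a. Ppp1r1b gave 0.39 ± 0.26 (edgeR adjusted p = 0.186). With the animal as a block, only Drd1 (1.03 ± 0.27, edgeR adjusted p = 0.00157) and Rgs9 (0.90 ± 0.38, 0.0386) were called, where 65.4% of all genes were called. Leaving out amygdala 60 min control 6, 120 min control 6 or 30 min control 1, each alone, likewise left 2 of 7 called. Without both control 6 libraries only Drd1 was called, the median difference was 0.22, and that of Pde10a was -0.02.

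The contrast with hypothalamus was larger for some of the genes. Amygdala was higher for Adora2a by 4.0 ± 0.61 on the log2 scale (16.0-fold, edgeR adjusted p = 2.2e-07), for Ppp1r1b by 3.37 ± 0.33 (10.4-fold, 1.04e-11), for Drd1 by 2.74 ± 0.34 (6.66-fold, 3.15e-09) and for Pde10a by 1.60 ± 0.32 (3.04-fold, 2.31e-05). Those 4 of 7 compare with 72.3% of all genes called and 36.4% called higher in amygdala. Gpr6 (0.90 ± 0.42, edgeR adjusted p = 0.0515), Rgs9 (0.75 ± 0.38, 0.0721) and Drd2 (0.62 ± 0.43, 0.189) did not pass. DESeq2 called 5 of 7, with Gpr6 as the fifth. Without both control 6 libraries of amygdala the same 4 were called, but Adora2a gave 3.08, Pde10a 0.94, Gpr6 0.07, Rgs9 -0.01 and Drd2 -0.1. Between 4 and 6 of the 7 were called when 1 control library was left out. Frontal cortex exceeded hypothalamus for the same 4 genes, by 2.98 ± 0.32 for Ppp1r1b (edgeR adjusted p = 6.59e-11), 2.86 ± 0.58 for Adora2a (2.44e-05), 1.5 ± 0.32 for Drd1 (5.9e-05) and 0.96 ± 0.31 for Pde10a (0.00447), where 82.2% of all genes were called and 40.8% were called higher in frontal cortex. Drd2 (-0.38 ± 0.42), Rgs9 (-0.45 ± 0.37) and Gpr6 (-0.08 ± 0.41) gave values on the other side of 0 and did not pass (edgeR adjusted p from 0.257 to 0.866). With the animal as a block the count was again 4 of 7 in both contrasts with hypothalamus, where 70.4% of all genes were called against amygdala and 80.9% against frontal cortex.

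Other genes of medium spiny neurons were read from fixed lists, by the median of their correlations with the 7 genes. In amygdala 4 of 7 further direct-pathway genes reached a median r of at least 0.8, namely Slc35d3 (0.976), the substance P precursor Tac1 (0.947), the transcription factor Isl1 (0.938) and the dynorphin precursor Pdyn (0.937), while Eya1 gave -0.695. All 3 measured indirect-pathway genes reached it, the enkephalin precursor Penk (0.965), Upb1 (0.954) and Sp9 (0.803). Six3 was under 1 CPM, and Gpr52 had no ID. Of the signalling genes 9 of 10 reached it, among them the sodium channel subunit Scn4b (0.973), the G protein subunit Gnal (0.967) and the adenylyl cyclase Adcy5 (0.967), as did 5 of 7 transcription factors, with Rarb at 0.978. Over all 14215 other genes, 6.7% reached 0.8 in amygdala.

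In frontal cortex 3 of 7 direct-pathway genes, 1 of 2 measured indirect-pathway genes (Penk, 0.97), 7 of 10 signalling genes and 5 of 7 transcription factors reached 0.8, where 0.81% of 13958 genes did. In hypothalamus 0 of the listed genes reached it, and 0% of 14463 genes did. The transcription factor Foxp1, which layers of the cortex also express, gave 0.955 in amygdala and 0.454 in frontal cortex. Control amygdala exceeded control frontal cortex, where 34.6% of all genes were called higher and 67.8% in either direction, for 5 of 7 direct-pathway genes, 3 of 4 indirect-pathway genes, 4 of 10 signalling genes and 4 of 7 transcription factors (edgeR adjusted p under 0.05). It was lower for 2 signalling genes and 1 transcription factor. Penk was higher by 1.38 ± 0.24 on the log2 scale (edgeR adjusted p = 4.6e-06).

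Markers of other cells moved with the 7 genes too. In the list for striatal cholinergic interneurons, Chat and Slc5a7 gave a median r of 0.864 and 0.903 in amygdala and of 0.902 and 0.909 in frontal cortex, with summed levels from 1.58 to 97.6 CPM and from 1.17 to 18.3 CPM. All 6 oligodendrocyte markers reached 0.8 in amygdala (0.849 to 0.893), where their sum ran from 1890 to 6540 CPM, but 0 of 6 in frontal cortex (0.355 to 0.493). Of the 6 thalamic markers 1 reached 0.8 in amygdala, Tcf7l2 at 0.923, with the others from -0.147 to 0.784 and a list median of 0.436. In frontal cortex 0 of 6 reached it (-0.505 to 0.594). The thalamic sum, from 41.4 to 85.9 CPM in amygdala, nevertheless followed the mean deviation of the 7 genes about as closely as the oligodendrocyte sum there. On the log2 scale, within groups, r was 0.869 and rho 0.925 for the thalamic sum, and r was 0.875 and rho 0.896 for the oligodendrocyte sum (0.879 and 0.883 for r without the 2 libraries farthest from the median). The sum of 5 endothelial markers, from 104 to 220 CPM, gave r = 0.576 and rho = 0.567 (r = 0.558 without 2 libraries). In frontal cortex the 3 sums gave r of 0.179, 0.437 and -0.348, in the same order. Of the cortical glutamate markers, 5 of 6 were at or below -0.5 in amygdala, Fezf2 at -0.931, and 4 of 6 in frontal cortex, where 22.3% and 6.43% of all genes were. Cux2 gave 0.792 in amygdala. In hypothalamus 0 of the 5 measured were, and 0.166% of all genes. All 4 basolateral markers were at or below -0.5 in amygdala, Slc17a7 at -0.856. Slc17a7 and Tbr1 are in both the cortical and the basolateral list. The basolateral sum had a median of 939 CPM in amygdala and 1740 CPM in frontal cortex, so the list is not particular to amygdala. The sum of the cortical list ran from 333 to 1350 CPM in amygdala. Among genes of central and intercalated amygdala, Crh gave 0.883 and the other 4 from -0.519 to 0.496. Prkcd of this list is also in the thalamic list. The part of these cells in the spread of the 7 genes was not tested.

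**Figure D4:**
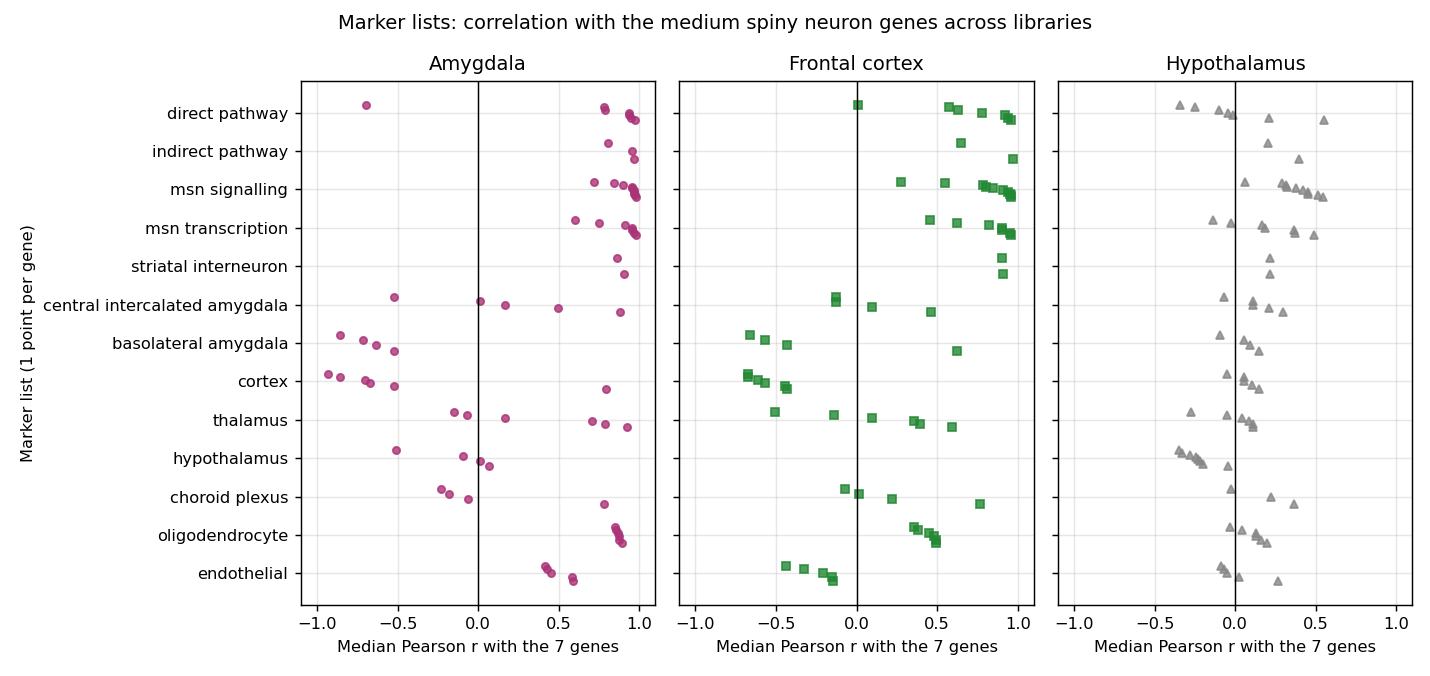
Median Pearson r with the 7 genes (horizontal axis) for each gene of the marker lists (1 point per gene, lists on the vertical axis) in amygdala, frontal cortex and hypothalamus. Most genes of the medium spiny neuron lists lie near 1 in amygdala and above 0.5 in frontal cortex. Oligodendrocyte markers lie near 0.9 in amygdala alone, and cortical and basolateral markers lie mostly below 0 in amygdala and frontal cortex.

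The mean deviation of the 7 genes correlated with sequencing depth at r = 0.136 over 30 amygdala libraries and -0.26 over 32 frontal cortex libraries. In amygdala it correlated at r = -0.716 with the share of ambiguous reads, which lay between 0.634% and 0.737%, and at 0.734 with the share of reads not aligned uniquely, between 10.009% and 11.122%. Their part in the spread was not tested. Among the indices carried by 6 to 8 libraries of a region, which come from 1 to 3 groups, Adora2a ranged within an index 11.5-fold to 28.4-fold in amygdala, 7.92-fold to 20.9-fold in frontal cortex and 1.58-fold to 8.3-fold in hypothalamus, and the part of the index was not tested.

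The genes of the whole table most like the 7 were named by the same measure. In amygdala they included Lrrc10b (median r = 0.981), the membrane peptidase Mme (0.978), Syndig1l (0.978), Strip2 (0.978), the retinoic acid receptor Rarb (0.978), Sh3rf2 (0.977), Serpina9 (0.977), Slc35d3 (0.976) and Acy1 (0.974), over 30 libraries. The lowest were Ptprk (-0.966), the calcium sensor Hpcal4 (-0.959), Mtfp1 (-0.958), Cpne6 (-0.958) and Tmem159 (-0.957). In frontal cortex the highest were Penk (0.97), Sh3rf2 (0.965), Gng7 (0.96), Syndig1l (0.96), Rarb (0.959), Pde1b (0.955), Lrrc10b (0.955), Adcy5 (0.955), Slc35d3 (0.955) and Cd4 (0.952), and the lowest included Sez6l (-0.845), Lasp1 (-0.843), Fam131a (-0.826) and St8sia5 (-0.813). Lrrc10b, Syndig1l, Rarb, Sh3rf2 and Slc35d3 stood in both leading sets. In hypothalamus the values were lower, led by the G protein subunit Gng7 (0.742), Nlk (0.645), Phactr1 (0.639), Bcl11a (0.633) and Gpc5 (0.614).

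The study's main question was what an intruder changes, and for these genes 0 of 7 were called in each of the 9 comparisons of intruder with control, by edgeR and by DESeq2 alike. The control and intruder groups overlapped in all 63 pairs of gene and comparison. The share of all genes whose groups did not overlap was 0.776%, 0.376% and 3.13% in amygdala at 30, 60 and 120 min, 1.03%, 0.369% and 0.246% in frontal cortex, and 3.22%, 0.458% and 1.3% in hypothalamus. Of all genes 0.538% were called in amygdala at 120 min, 0.192% in hypothalamus at 120 min and 0% in the other 7. Only Adora2a in hypothalamus at 60 min had an unadjusted edgeR p under 0.05.

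In amygdala at 120 min the fitted differences were all above 0, from 0.40 ± 0.58 for Ppp1r1b to 0.91 ± 0.82 for Gpr6 (edgeR adjusted p from 0.603 to 0.763). Gpr6 measured 3.33, 1.52, 2.2, 4.97 and 19.8 CPM in the controls and 4.64, 5.55, 25.5, 5.65 and 19.0 CPM in the intruder libraries. High libraries stood on both sides, 2 in the intruder group and 1 among the controls. Without control 6 the median over the 7 genes went from 0.67 to 1.58 with 0 called, and without intruder 3 it went to 0.33. At 60 min they ran from -0.50 ± 0.95 for Adora2a to -0.27 ± 0.65 for Pde10a, and all 7 changed sign without control 6, where the median went from -0.34 to 0.97. At 30 min they ran from -0.24 to -0.09, and all 7 changed sign without control 1 (median 0.33).

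In frontal cortex the differences ran from 0.31 to 0.90 at 30 min, from 0.51 to 0.83 at 60 min and from -0.14 to 0.18 at 120 min. Rgs9 at 30 min measured 22.2, 11, 31.5, 10.4 and 32.2 CPM in the controls and 44.0, 97.2, 7.89, 17.3 and 34.5 CPM in the intruder libraries, a difference of 0.90 ± 0.63 (edgeR adjusted p = 0.795). Without intruder 2 the median over the 7 genes fell to 0.02. With the library index as a block all 7 changed sign at 30 min (median -0.12). Intruder 2 and another intruder library of that group were the only ones of the region with their index. The block therefore takes both out of this contrast. At 60 min the median of 0.54 went to 0.17 without intruder 3, to 0.25 with the index block and to 0.02 with the replicate number as a block. At 120 min each of the 7 changed sign for at least 1 library left out. Adora2a there ran from -0.38 to 0.33.

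In hypothalamus Adora2a at 60 min measured 4.62, 1.05, 1.2, 1.81 and 8.44 CPM in the controls and 1.44, 1.15, 1.02, 1.54 and 2.2 CPM in the intruder libraries. The controls held the 2 high libraries and otherwise overlapped the intruder group. The log2 difference was -1.21 ± 0.47 with an unadjusted edgeR p of 0.0162 that did not survive adjustment over 17676 genes. Without control 6 it was -0.55, and with the replicate number as a block -0.4. At 30 min the difference of Adora2a was -0.88, and -0.05 without control 3. The differences of the 7 genes ran from -0.88 to -0.06 at 30 min, from -1.21 to 0.04 at 60 min and from -0.14 to 0.26 at 120 min.

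**Figure D5:**
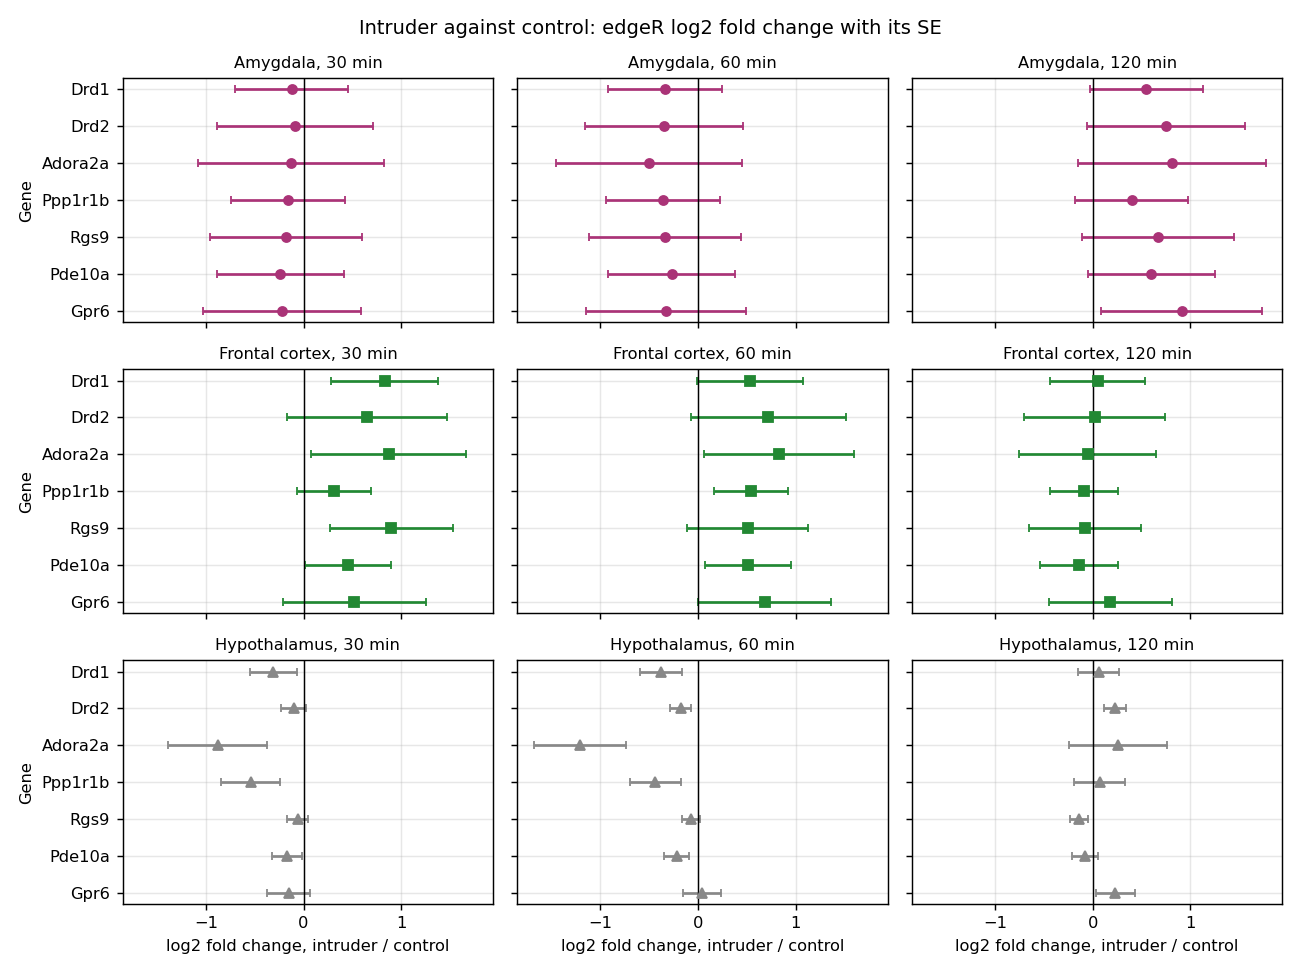
Log2 fold change of intruder over control (horizontal axis) with its SE (bars) for each of the 7 genes, by region (rows) and minutes after the encounter (columns), from edgeR. The bars in amygdala and frontal cortex are several times wider than those of Drd2 and Rgs9 in hypothalamus.

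The effect of the intruder was not called different between times for any of the 7 genes in amygdala, frontal cortex or hypothalamus (edgeR adjusted p of 0.791 or more), where 0%, 0% and 0.0113% of all genes were called, and DESeq2 also called 0 of 7. Drd2 in hypothalamus had an unadjusted edgeR p of 0.0385 (adjusted 0.872). Between regions it differed for 0 of 7 at each time (edgeR adjusted p of 0.87 or more, 0% of all genes, and 0 of 7 with an unadjusted p under 0.05). Over the control libraries the 3 times differed for 0 of 7 genes in amygdala, frontal cortex and hypothalamus, where 0.232%, 33.4% and 0.181% of all genes were called, and Adora2a and Drd2 in hypothalamus had unadjusted edgeR p of 0.00333 and 0.0336 (adjusted 0.241 and 0.447). Over the intruder libraries 0 of 7 differed with time, where 12.9%, 46.1% and 1.49% of all genes were called, and 0 of 7 had an unadjusted p under 0.05. The shares in amygdala depended on the setting. The 2225 genes called over its intruder libraries went to 2 with the index block and to 2955 by DESeq2. The 40 called over its control libraries went to 0 and to 196. DESeq2 called 0 of 7 in each of these tests over time.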

How the data were processed

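RNA-seq reads per gene in 90 libraries came as 1 table of raw counts deposited by the authors. CASAVA 1.8.2, TopHat2 2.0.8, HTSeq 0.6.1, edgeR 3.2.4, R 3.0.0 and the build NCBIM37 are named in the submitters' processing notes, without their settings, and whether strand was used is not given in the sources used here. The 5 counter totals that name no gene were left out (8.633% to 14.457% without a feature, 0.634% to 0.761% ambiguous, 9.786% to 11.503% not unique). Symbols were paired with 32919 IDs from a mouse annotation. Promoters came from RefSeq on GRCm38.p6, another build than that of the counts, so coordinates were not mixed.

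Counts were fitted with edgeR 4.0.16 (limma 3.58.1, R 4.3.3): filterByExpr, TMM scaling, quasi-likelihood F tests, Benjamini-Hochberg adjustment over all genes tested (17277 in amygdala, 17091 in frontal cortex, 17676 in hypothalamus, 18056 over control libraries), called under 0.05. Groups of 1 region shared a fit, and the SE is the fold change divided by the root of F. DESeq2 1.42.0 was an alternative, with other scalings, filters, blocks and left-out libraries. Log2 CPM used a prior count of 2. Correlation and animal tests were two-sided permutations within groups, and spread tests permuted libraries between regions, in Python 3.11.15 with numpy 2.4.6, pandas 2.3.3 and scipy 1.17.1. Fits were tested on simulated counts.

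The genes named are the 7 members, genes of the lists, and the 10 highest and 5 lowest by median correlation with the members over genes of at least 1 CPM. Of these, 5 are printed for hypothalamus, on the high side, and some genes are not reported here. Members and lists were chosen with earlier results of these data known. For comparisons of regions, libraries pair by the animal ID in the labels, and that block is printed where it changes a count. Control and intruder libraries of 1 number are different animals.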

Additional observations from a re-analysis of the deposited data

Results flagged for a closer look

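In groups of 4 to 10 libraries, a library was singled out when its gap to the nearest other took more of the group's range than the 95% value of Dixon's test allows. This held for 17 of 119 combinations of gene and group (14.3%), all on the high side. For normal values chance gives about 1 in 20, but the test was run on CPM and not on log2 CPM. CPM are skewed upward here, so the 14.3% does not measure an excess over chance. Since the genes move together, the 17 are not independent.

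Amygdala 60 min control 6 stood far above the other 4 libraries of its group in all 7 genes. It measured 178 CPM for Drd1 (next 41.9), 99.9 for Drd2 (next 20.1), 176 for Adora2a (next 27.9) and 35.5 for Gpr6 (next 7.39). The signalling genes measured 728 CPM for Ppp1r1b (next 179), 759 for Pde10a (next 162) and 300 for Rgs9 (next 59.0).

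Amygdala 120 min control 6 stood apart in the same way. It measured 117 CPM for Drd1 (next 39.0), 53.7 for Drd2 (next 18.3), 92.6 for Adora2a (next 21.2), 19.8 for Gpr6 (next 4.97), 427 for Ppp1r1b (next 182), 471 for Pde10a (next 126) and 185 for Rgs9 (next 46.3).

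The other 3 cases concerned 1 gene each. Pde10a was high in frontal cortex 30 min intruder 2 at 291 CPM (next 151), Drd2 in hypothalamus 120 min intruder 6 at 24.1 CPM (next 17.5) and Drd1 in hypothalamus 60 min control 6 at 16.0 CPM (next 8.43).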

How the results depend on the processing

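Of the 7 genes, 6 were called between control amygdala and control frontal cortex. With the animal as replicate block 2 were called, without both control 6 libraries of amygdala (added after seeing the data) 1, and without 1 library at a time 2 to 6; Pde10a then went from 0.65 to -0.02 without both. The spread between amygdala and frontal cortex differed for 0 genes around group medians and, adjusted over the 21 tests alone, for 2 around group means. The cause was not tested.

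No gene of the 7 was called between intruder and control under any alternative run; the lowest adjusted p was 0.121, for Pde10a in amygdala at 120 min. The number in the group names pairs no animals there (r of deviations from -0.5 to 0.56 over 41 pairs). With it as a replicate block 0 of 7 were called, the amygdala median at 60 min went from -0.34 to 0.47, and calls over all genes in amygdala at 120 min went from 93 to 199. Without both control 6 libraries 435 were called there, DESeq2 called 409, upper-quartile scaling 134, no filter 12, and the index block and the 2 groups alone 0. In hypothalamus at 120 min the main fit called 34 of all genes and DESeq2 100. Upper-quartile scaling called 35, the index block 29, no filter 27, the replicate block 6 and the 2 groups alone 0. Depth limited only the lowest values, 28 reads for Gpr6 and 39 for Drd2 in 1 frontal cortex library.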
